A study of Mus musculus with 6 samples.

Results

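The vascular endothelial growth factor (VEGF) family was followed in diabetic skin at day 7 after wounding. It was taken by symbol as 10 genes, 5 ligands (Vegfa, Vegfb, Vegfc, Vegfd and Pgf), 3 receptor tyrosine kinases (Kdr, Flt1 and Flt4) and 2 neuropilins (Nrp1 and Nrp2). All 10 were found among the 16131 genes of the deposited table. The C57BL/6 mice had been rendered diabetic with streptozotocin, which kills the insulin-producing beta cells. Skin was sequenced as 3 poly(A) RNA-seq libraries in each group. The control group received 10 µl per day of phosphate-buffered saline (PBS), and the treated group the same volume of recombinant fibroblast growth factor 4 (rFGF4) at 100 ng/ml. Every library is therefore from diabetic, wounded skin, and no skin of healthy or unwounded mice was used here. The labels give neither the age nor the sex of the mice, nor whether each replicate was a separate animal, and p-values here can then reflect technical spread between the libraries alone. The comparison asks how rFGF4 and PBS wounds differ in these transcripts.

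VEGF ligands are secreted dimers that drive the growth and permeability of vessels. VEGF-A binds VEGFR1 (Flt1) and VEGFR2 (Kdr), of which VEGFR2 carries most of the signal in blood endothelium and VEGFR1 binds ligand tightly and can act as a decoy. VEGF-B and placental growth factor bind VEGFR1 but not VEGFR2, while VEGF-C and VEGF-D act through VEGFR3 (Flt4), the receptor of lymphatic endothelium. Processed VEGF-C also binds VEGFR2, as does human but not mouse VEGF-D. Neuropilins have no kinase activity, and bind both VEGF ligands and class 3 semaphorins as co-receptors. In healing skin, VEGF-A comes mainly from keratinocytes and macrophages.

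Values are taken to be FPKM, fragment counts scaled for transcript length and library size, though no unit stands in the header. On that reading, levels of different genes can be set side by side per length. Tests were made with limma on log2(FPKM + 0.1), and a gene was called where its Benjamini-Hochberg adjusted p over the 14676 genes tested was under 0.05. In this fit 12.1% of genes were called, 8.46% higher and 3.62% lower with rFGF4. Of all genes tested, 69.8% of fold changes were positive, and 32.1% of genes had an unadjusted p under 0.05. With the length trend removed, 2.16% of genes were called. The median log2 fold change of all genes tested was 0.19, and 0.014 with median-centred libraries. Calls were 1241 higher and 532 lower as deposited, 138 and 617 with median-centred libraries and 235 and 514 with quantile normalization. The listed values summed to between 304717 and 319807 FPKM per library, and FPKM keep no read counts, so the depth is unknown. Fold changes rose with transcript length across 14191 genes, which are not independent replicates (Spearman's rho 0.502). The epidermal keratins Krt5 and Krt14, which mark skin, were present at 1577 and 2317 FPKM on average in PBS. The endothelial genes Pecam1 and Cdh5 were present at 23.2 and 26.4 FPKM. Fgf4 itself is not listed in the table.

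With rFGF4 the ligand gene Vegfd and the co-receptor gene Nrp1 rose, by 1.66-fold and 1.83-fold. These 2 of 10 members were called, both higher, against 12.1% of all genes tested (8.46% higher). The other 8 did not pass, including Vegfa, the family's most abundant transcript, at 22.0 ± 5.66 FPKM in PBS and 24.5 ± 0.602 in rFGF4 libraries (SD, n = 3 each). All 10 fold changes were positive as deposited, where 69.8% of all genes were positive, and the members' median log2 fold change was 0.57. The groups did not overlap in 6 of 10 members, all higher with rFGF4, where 38.2% of all genes tested did not overlap and 30.9% had every rFGF4 library above every PBS library. The calls of Vegfd and Nrp1 rest on all 6 libraries, as leaving out any single library left 0 members called. Limma adjusted p was then 0.0553 to 0.0833 for Vegfd and 0.0514 to 0.0944 for Nrp1. Their log2 fold changes in these fits were 0.65 to 0.78 and 0.73 to 0.94. Of all genes tested, 1.06 to 6.06% were called in these fits, against 12.1% with all 6 libraries. With all 6 libraries, both calls were also lost with median-centred libraries, with quantile normalization and with the length trend removed.

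**Figure D1:**
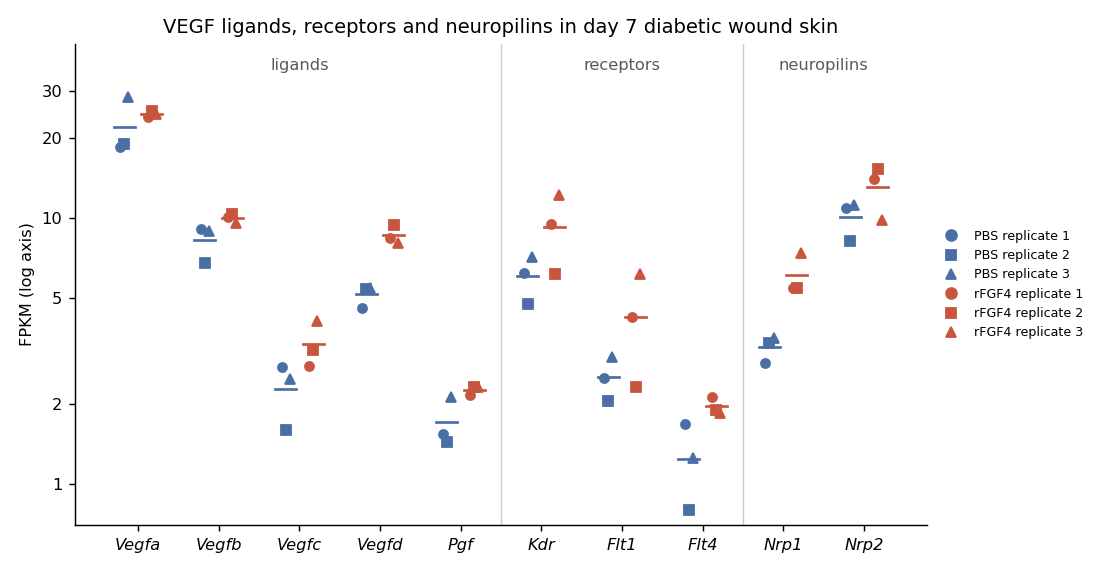
FPKM on a log axis of the 10 VEGF family genes in each of the 6 libraries, with PBS in blue, rFGF4 in red, 1 symbol shape per replicate number and a bar at the group mean. Vegfd and Nrp1 lie apart between groups, while Vegfa, Kdr, Flt1 and Nrp2 overlap.

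The order of the levels was the same in both groups. In PBS it ran from Vegfa (22.0 FPKM) through Nrp2 (10.1), Vegfb (8.26), Kdr (6.02), Vegfd (5.15), Nrp1 (3.26), Flt1 (2.52), Vegfc (2.28) and Pgf (1.70) to Flt4 (1.24). In both groups Vegfa lay above Nrp2 and Vegfd above Nrp1 with no overlap of the libraries' ranges. Each other pair of neighbours overlapped in PBS, and in rFGF4 libraries the ranges of Vegfc and Pgf and of Pgf and Flt4 were also apart. Flt4 in PBS replicate 2, at 0.795 FPKM, was the lowest value of the family and the only one under 1.

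The promoters of Kdr, Flt1 and Vegfd are shown because Kdr and Flt1 moved together from library to library, whereas Vegfd was the ligand that was called. The sequences are RefSeq's for GRCm38.p6, 5′ to 3′ on the gene's strand, and end just before the gene as annotated in GENCODE M21. Kdr is from chr5:75978459-75978705 and Flt1 from chr5:147726012-147726261, both on the minus strand, and Vegfd is from chrX:164373272-164373377 on the plus strand. Capitals mark matches, on either strand, of the Sp1 motif GGGCGG, the hypoxia-inducible factor core ACGTG or GCGTG, the ETS motif CCGGAA and the AP-1 motif TGANTCA, and no marked matches overlap.
Kdr: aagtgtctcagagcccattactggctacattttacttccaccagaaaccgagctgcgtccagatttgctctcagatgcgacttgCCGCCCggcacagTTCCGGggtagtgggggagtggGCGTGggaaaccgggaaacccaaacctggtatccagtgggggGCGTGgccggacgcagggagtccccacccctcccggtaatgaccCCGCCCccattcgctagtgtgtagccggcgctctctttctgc
Flt1: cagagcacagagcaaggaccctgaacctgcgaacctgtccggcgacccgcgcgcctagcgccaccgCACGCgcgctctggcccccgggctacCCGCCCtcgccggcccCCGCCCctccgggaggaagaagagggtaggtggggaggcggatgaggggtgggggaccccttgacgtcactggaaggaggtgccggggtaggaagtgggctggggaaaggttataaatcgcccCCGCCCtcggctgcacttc
Vegfd: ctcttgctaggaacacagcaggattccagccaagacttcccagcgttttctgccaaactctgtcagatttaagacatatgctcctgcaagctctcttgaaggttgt
Both receptor windows hold Sp1 and hypoxia-inducible factor core letters, and the Vegfd stretch holds none of the motifs marked. The stretches differ in length, at 247 bases for Kdr, 250 for Flt1 and 106 for Vegfd. Their GC content also differs, at 61.5%, 70.4% and 47.2%.

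Over the 250 bases before the RefSeq start, all 10 members matched the table with 12 windows, since Vegfa and Pgf have a pair of starts each. GGGCGG was found in 10 of the 12 windows and in 32.7% of all 32851 windows in the table. A hypoxia-inducible factor core was found in 7 of 12 and in 38.6% of all. CCGGAA was found in 1 of 12, that of Kdr, and in 12.0% of all, and TGANTCA in 0 of 12 and in 6.75% of all. TATAAA, which is not marked above, was found in 2 of 12, those of Flt1 and Vegfd, and in 12.4% of all. The windows' GC content ran from 42.4%, that of Vegfd, to 76.4%, that of Vegfb, with a median of 52.4% over all windows. A match is a description of letters and not of a bound site. The whole window of Nrp1 lies inside the gene as GENCODE places it and is not printed.

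Among the ligands, Vegfd measured 4.59, 5.41 and 5.44 FPKM in PBS replicates 1 to 3 and 8.42, 9.39 and 8.02 in rFGF4 replicates 1 to 3. The lowest rFGF4 library lay well above the highest PBS library. Vegfd, which encodes VEGF-D, lies on chromosome X from 164373378 to 164402650 on the plus strand (GRCm38, GENCODE M21). Its log2 fold change was 0.73 (SE 0.127, 95% interval 0.43 to 1.04, limma adjusted p = 0.0226). In the authors' deposited table Vegfd has a fold of 1.67 and a q-value of 0.0197. With median-centred libraries the value was 0.55 (limma adjusted p = 0.0576), and removal of the length trend gave 0.57 (limma adjusted p = 0.098).

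Vegfa, the principal angiogenic ligand (chromosome 17, 46016993 to 46032369, minus strand), measured 18.5, 19.0 and 28.5 FPKM in PBS and 23.9, 25.1 and 24.5 in rFGF4 libraries. The rFGF4 libraries lay close together, between the lower pair of PBS libraries and PBS replicate 3, the highest of the 6. The log2 fold change was 0.18 (95% interval -0.25 to 0.62, limma adjusted p = 0.532). Without PBS replicate 3 it was 0.39 and still did not pass (limma adjusted p = 0.113), while it was 0.074 without PBS replicate 1 and 0.094 without PBS replicate 2 (limma adjusted p = 0.838 and 0.816). On removal of the length trend the value depended on the length assigned to Vegfa, for which GENCODE M21 annotates 13 transcripts. With the length trend removed by its principal transcript of 654 bases the value was 0.63 (limma adjusted p = 0.198), and by its longest transcript of 3451 bases it was -0.076 (limma adjusted p = 0.859).

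Vegfb (chromosome 19, 6982473 to 6987651, minus strand) measured 9.07, 6.78 and 8.93 FPKM in PBS and 10.03, 10.3 and 9.55 in rFGF4 libraries. The groups did not overlap, with the gap set by small distances and PBS replicate 2 low. The log2 fold change of 0.28 did not pass (limma adjusted p = 0.228). VEGF-B is known above all from heart and skeletal muscle. The 10 skeletal muscle markers, all listed and none at 0, summed to 2443 to 5211 FPKM in PBS and 1595 to 3314 FPKM in rFGF4 libraries. Limma called 0 of them (1 at an unadjusted p under 0.05), against 12.1% (32.1%) of all genes tested. The part of muscle content in the Vegfb values was not tested.

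Vegfc, the lymphatic growth factor gene (chromosome 8, 54077606 to 54187096, plus strand), measured 2.75, 1.60 and 2.48 FPKM in PBS and 2.77, 3.17 and 4.10 in rFGF4 libraries. The groups touched without overlapping, as rFGF4 replicate 1 lay just above PBS replicate 1. The log2 fold change was 0.55 (95% interval -0.040 to 1.15, limma adjusted p = 0.181). Pgf, the gene of placental growth factor (chromosome 12, 85166635 to 85177790, minus strand), measured 1.54, 1.44 and 2.13 FPKM in PBS and 2.15, 2.31 and 2.30 in rFGF4 libraries. PBS replicate 3 reached almost to the rFGF4 libraries. A log2 fold change of 0.41 resulted (95% interval -0.055 to 0.87, limma adjusted p = 0.203).

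The summed FPKM of the 5 ligands was 36.4, 34.2 and 47.5 in PBS and 47.3, 50.4 and 48.5 in rFGF4 libraries. Vegfa made up 55.4 ± 4.66% of this sum in PBS and 50.4 ± 0.379% in rFGF4 libraries (SD, n = 3 each). The share of Vegfd was 12.6, 15.8 and 11.4% in PBS and 17.8, 18.7 and 16.6% in rFGF4 libraries. Vegfd's share was thus higher in each rFGF4 library than in any PBS library. The shares of Vegfa and Pgf also did not overlap, by narrow gaps. Vegfa's was lower with rFGF4 (at most 50.6%, against at least 50.7% in PBS). Pgf's was higher (at least 4.54%, against at most 4.48%). Vegfb's share, at 21.2 ± 3.27% and 20.5 ± 0.756%, overlapped, as did that of Vegfc. Shares of a single sum are not independent.

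Among the receptors, Kdr (chromosome 5, 75932827 to 75978458, minus strand) measured 6.21, 4.73 and 7.11 FPKM in PBS and 9.48, 6.15 and 12.2 in rFGF4 libraries. rFGF4 replicate 2 lay within the PBS range and the others above it. The log2 fold change of 0.58 did not pass (95% interval -0.069 to 1.23, limma adjusted p = 0.196), and was 0.36 without rFGF4 replicate 3 and 0.27 with an endothelial score, the mean log2 level of the blood endothelial markers, as covariate (limma adjusted p = 0.391 and 0.311). Flt1 (chromosome 5, 147561604 to 147726011, minus strand) measured 2.50, 2.05 and 3.00 FPKM in PBS and 4.25, 2.30 and 6.12 in rFGF4 libraries. The libraries took the same order as for Kdr in each group, with rFGF4 replicate 2 again inside the PBS range. The log2 fold change of 0.63 did not pass (95% interval -0.20 to 1.47, limma adjusted p = 0.264). It was 0.32 without rFGF4 replicate 3, 1.01 without rFGF4 replicate 2 and 0.22 with the endothelial score (limma adjusted p = 0.517, 0.0678 and 0.455). These are values per gene and do not separate the membrane-bound from the soluble, decoy form of Flt1.

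Flt4 (chromosome 11, 49609263 to 49652739, plus strand) measured 1.67, 0.795 and 1.24 FPKM in PBS and 2.12, 1.90 and 1.85 in rFGF4 libraries. The groups did not overlap, and unlike Kdr and Flt1 the rFGF4 libraries lay close together. Its log2 fold change was 0.67 (95% interval 0.020 to 1.33, unadjusted p = 0.045 and adjusted p = 0.146 by limma). With the length trend removed Kdr, Flt1 and Flt4 had log2 fold changes of 0.18, 0.21 and 0.26.

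Nrp1, the neuropilin of blood vessels (chromosome 8, 128358604 to 128503363, plus strand), measured 2.85, 3.37 and 3.54 FPKM in PBS and 5.43, 5.43 and 7.36 in rFGF4 libraries. All 3 rFGF4 libraries lay above the PBS libraries, with rFGF4 replicate 3 the highest. Its log2 fold change of 0.87 was the largest of the family (SE 0.170, 95% interval 0.47 to 1.27, limma adjusted p = 0.0287). In the authors' deposited table Nrp1 has a fold of 1.86 and a q-value of 0.0130, and among the other members Flt4 has the lowest q-value after Vegfd, 0.297. With median-centred libraries the value was 0.69 (limma adjusted p = 0.0844), and removal of the length trend gave 0.57 (limma adjusted p = 0.204).

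Nrp2, the neuropilin of veins and lymphatic vessels (chromosome 1, 62703285 to 62818695, plus strand), measured 10.9, 8.20 and 11.1 FPKM in PBS and 14.0, 15.3 and 9.84 in rFGF4 libraries. rFGF4 replicate 3, the highest library for Nrp1, Kdr and Flt1, was the lowest of its group for Nrp2 and lay within the PBS range. The log2 fold change was 0.36 (95% interval -0.13 to 0.84, limma adjusted p = 0.28). With the length trend removed it was -0.057 (limma adjusted p = 0.907). Nrp1 made up 20.7, 29.1 and 24.2% of the summed FPKM of both neuropilins in PBS and 27.9, 26.3 and 42.8% in rFGF4 libraries, so that the groups overlapped.

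**Figure D2:**
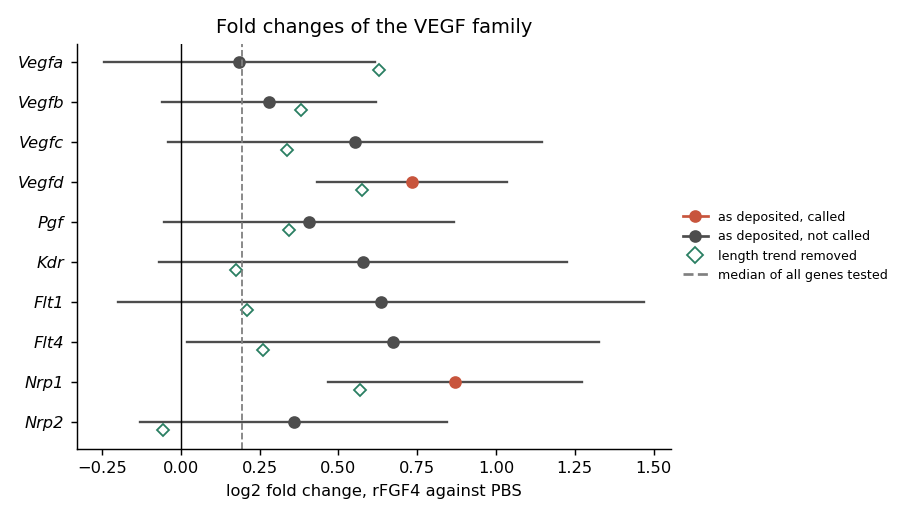
Log2 fold change of rFGF4 against PBS for each member, with circles and lines for the value as deposited and its 95% interval from limma, open diamonds for the value with the length trend removed, and a dashed line at the median of all genes tested, 0.19. The intervals of Vegfd, Flt4 and Nrp1 lie above 0, and Nrp2 moves to -0.057 with the length trend removed.

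Kdr and Flt1 followed the endothelial genes from library to library. Cdh5, the cadherin of endothelial junctions, measured 25.8, 22.4 and 31.0 FPKM in PBS and 42.0, 24.5 and 48.0 in rFGF4 libraries. Pecam1, the endothelial adhesion molecule CD31, measured 23.0, 18.7 and 28.1 FPKM in PBS and 41.6, 21.0 and 43.5 in rFGF4 libraries. For both, as for Kdr and Flt1, rFGF4 replicate 2 stood inside the PBS range and the others above it. The 20 blood endothelial markers were all listed, none at 0, and summed to 202 to 281 FPKM in PBS and 214 to 379 FPKM in rFGF4 libraries.

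The ratio of Kdr to Cdh5 was 0.241, 0.211 and 0.229 in PBS and 0.226, 0.251 and 0.253 in rFGF4 libraries, and did not differ beyond the spread (exact two-sided permutation p = 0.3, where 3 against 3 libraries allow no p below 0.1). The ratio of Flt1 to Kdr was 0.402, 0.433 and 0.422 in PBS and 0.448, 0.374 and 0.503 in rFGF4 libraries (exact permutation p = 0.7). Nrp1 over Cdh5 was 0.111, 0.151 and 0.114 in PBS and 0.129, 0.222 and 0.153 in rFGF4 libraries (exact permutation p = 0.2). The groups thus overlapped in each of these ratios, that of Nrp1 included. In bulk tissue, more cells of a type and more RNA per cell cannot be told apart.

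Of 20 ratios computed, 10 between members and 10 of a receptor or neuropilin over Pecam1 or Cdh5, 1 had groups that did not overlap. This was Vegfa over Pgf, at 12.0, 13.2 and 13.4 in PBS and 11.1, 10.9 and 10.7 in rFGF4 libraries. Its exact permutation p was 0.1, the smallest that the design allows, and 0.824 when adjusted over the 20 ratios.

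By a fixed rule the 3 genes most like a member over the 6 libraries were also found, by Pearson's r of log2(FPKM + 0.1) among genes with a mean of at least 5 FPKM. For Kdr these were Eng, the endothelial co-receptor endoglin (r = 0.994), Cdh5 (0.981) and Parvb (0.977). For Flt1 they were Cdh5 (0.988), Kdr (0.986) and Trip10 (0.984). For Vegfa they were Arhgap30 (0.991), Cpt1c (0.989) and Fes (0.984), and for Vegfd Ddx5 (0.998), Pdzd8 (0.993) and Acap2 (0.993). With 8036 or 8037 genes compared over 6 libraries, which each gene shares along with their groups and scaling, such values are a description alone.

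**Figure D3:**
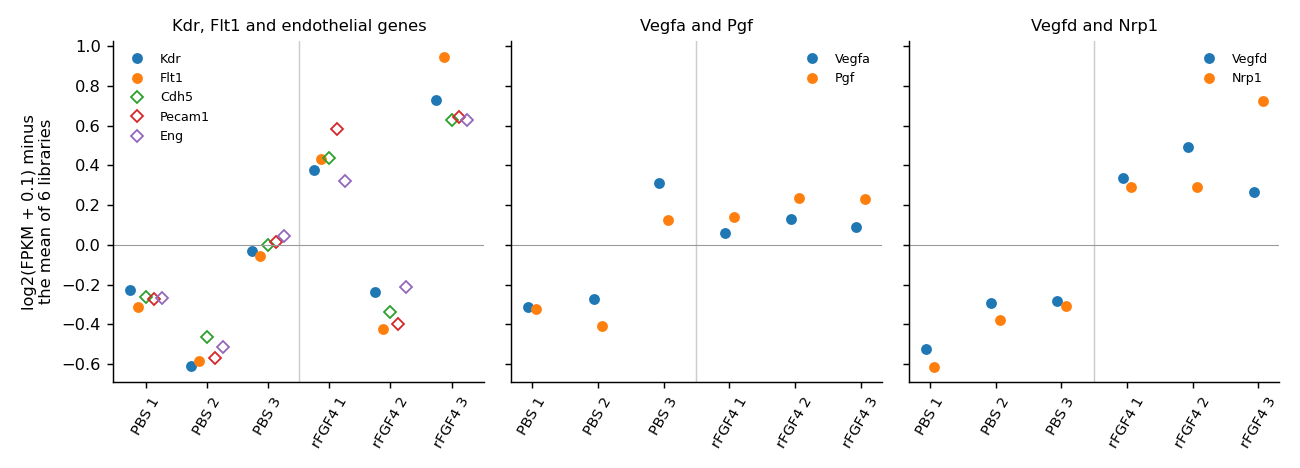
Log2(FPKM + 0.1) in each library minus the mean of the 6 libraries, for Kdr, Flt1 and 3 endothelial genes (left), Vegfa and Pgf (middle) and Vegfd and Nrp1 (right), with filled circles for members and open diamonds for the others. Kdr, Flt1 and the endothelial genes are lowest in PBS replicate 2 and, within rFGF4, in rFGF4 replicate 2, whereas Vegfd and Nrp1 are above 0 in each rFGF4 library and below 0 in each PBS library.

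The summed fibroblast markers, like Vegfd and Nrp1, were higher in every rFGF4 library than in any PBS library. The same held for 30.9% of all genes tested. The 10 fibroblast markers were all listed, none at 0, and summed to 2832, 3555 and 3504 FPKM in PBS and to 5056, 5516 and 5672 in rFGF4 libraries. Within rFGF4, replicate 3 had the highest fibroblast sum and the highest Nrp1 but the lowest Vegfd. Of the 10 markers 6 rose and 0 fell, against 8.46% and 3.62% of all genes tested, with a median log2 fold change of 0.87. Among these were Fbn1, the fibrillin of microfibrils (23.3 ± 1.63 to 48.4 ± 6.82 FPKM), the receptor Pdgfra (10.7 ± 1.43 to 23.1 ± 4.08) and the proteoglycans Dcn and Lum (SD, n = 3 each, limma adjusted p 0.0131 to 0.0228). Removing the length trend left 0 of the 10 called by limma (5 at an unadjusted p under 0.05), where 2.16% of all genes were called. When each library was left out in turn Fbn1 was called in 4 of 6 fits, Pdgfra in 2, Lum in 2 and Dcn in 1. The part of fibroblast content in the rise of Vegfd and Nrp1 was not tested.

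Upstream of Vegfa, the hypoxia-inducible factor (HIF) regulators showed 2 rises and 0 falls among 8 tested members. Of all genes tested, 8.46% rose and 3.62% fell. Hif1a, the oxygen-regulated subunit of HIF-1, measured 21.2, 21.6 and 24.5 FPKM in PBS and 47.0, 36.8 and 53.8 in rFGF4 libraries. All rFGF4 libraries lay clear of the PBS libraries (log2 fold change 1.02, limma adjusted p = 0.0192). Its partner Arnt rose from 7.41 ± 0.185 to 10.99 ± 0.770 FPKM (SD, n = 3 each, limma adjusted p = 0.0275). Of the 6 fits that left out a library, each of these genes was called in 1, that without rFGF4 replicate 2 (limma adjusted p in the others reached 0.0827 for Hif1a and 0.0976 for Arnt). With the length trend removed neither passed (limma adjusted p = 0.119 and 0.255).

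HIF induces the hypoxia target genes along with Vegfa. Of 15 members limma called 0, against 12.1% of all genes tested, and 1 had an unadjusted p under 0.05, against 32.1%. Of their fold changes 7 were positive, against 69.8% of all genes, and the median was -0.0056 against 0.19 for all genes tested. When PBS replicate 3 was dropped, 9 were positive, 4 had an unadjusted p under 0.05 and the median was 0.096. The median of all genes tested was then 0.21. P4ha1, a collagen prolyl hydroxylase, had the smallest p of the list, at 17.4 ± 5.61 FPKM in PBS and 27.0 ± 2.77 in rFGF4 libraries (SD, n = 3 each, limma adjusted p = 0.0964).

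Downstream of the receptors, 24 of 25 signal transducers were tested, and 3 rose and 0 fell, against 8.46% and 3.62% of all genes tested (median log2 fold change 0.30). Among them were the Src-family kinase Fyn, at 8.86 ± 1.83 and 15.2 ± 1.52 FPKM, and the PI3-kinase subunit Pik3ca, at 6.32 ± 0.495 and 9.34 ± 1.10 FPKM in PBS and rFGF4 libraries (SD, n = 3 each, limma adjusted p = 0.0376 and 0.0441). Both lost their calls whichever library was left out. Removing the length trend left 0 of the list called (2 at an unadjusted p under 0.05), where 2.16% of all genes were called. These kinases serve many receptors besides those for VEGF.

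Of 16 genes that endothelium induces in response to VEGF, 0 were called by limma (2 at an unadjusted p under 0.05), 15 fold changes were positive and the median was 0.39. Of all genes tested, 12.1% were called, 32.1% had an unadjusted p under 0.05 and 69.8% were positive, with a median of 0.19. The list includes Flt1. Its smallest p was that of Mmp14, a membrane-bound metalloproteinase, at 90.1 ± 12.5 and 139 ± 28.9 FPKM (SD, n = 3 each, limma adjusted p = 0.0791). Of the 20 blood endothelial markers 0 were called (1 at an unadjusted p under 0.05), with a median of 0.26. The markers' median was 0.52 without rFGF4 replicate 2, with 10 of the 20 at an unadjusted p under 0.05, and 0.075 without rFGF4 replicate 3, with 0. For all genes tested the median was 0.17 without rFGF4 replicate 2 and 0.22 without rFGF4 replicate 3. Tek, the angiopoietin receptor, had the smallest p of the blood endothelial list (limma adjusted p = 0.138).

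Lymphatic endothelium, where Flt4 and its ligands act, was represented by 5 tested markers of 9. Of these 3 rose and 0 fell, against 8.46% and 3.62% of all genes tested. Lyve1, a hyaluronan receptor of lymphatic vessels and of some macrophages, measured 3.55, 3.11 and 2.99 FPKM in PBS and 6.22, 5.84 and 6.03 in rFGF4 libraries. The groups lay well apart, with little spread within either (log2 fold change 0.89, limma adjusted p = 0.0146). Pdpn, podoplanin, which keratinocytes and fibroblasts also express, rose from 24.1 ± 0.210 to 38.8 ± 6.66 FPKM, and Itga9 from 2.56 ± 0.121 to 4.14 ± 0.707 FPKM (SD, n = 3 each, limma adjusted p = 0.035 and 0.0452). Prox1, the transcription factor that defines lymphatic endothelium, and Reln are not listed in the table, which holds genes above 1 FPKM in at least 1 library.

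Lyve1 kept its call in 4 of 6 fits that left out a library, losing it without PBS replicate 2 or 3. Pdpn kept it only without rFGF4 replicate 2, and Itga9 in none. With the length trend removed limma called 0 of the lymphatic list (2 at an unadjusted p under 0.05), and 2.16% of all genes. The 10 macrophage markers summed to 295 to 573 FPKM in PBS and 399 to 658 FPKM in rFGF4 libraries, with none at 0. Of them 2 rose and 0 fell, against 8.46% and 3.62% of all genes tested. The 2 that rose were Mrc1 (11.5 ± 0.675 to 34.7 ± 0.358 FPKM) and Cd163 (4.45 ± 0.794 to 8.59 ± 1.87 FPKM), scavenger receptors of resident macrophages (SD, n = 3 each, limma adjusted p = 0.00154 and 0.0384). Mrc1 kept its call with each library left out and with the length trend removed, and Cd163 only without rFGF4 replicate 1. Their part in the values of Lyve1 and Nrp1 was not tested.

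The proteases and cofactors that process VEGF-C and VEGF-D were tested in 8 of 10 members, and 1 rose and 0 fell, against the same 8.46% and 3.62% (median 0.43). This was Plat, tissue plasminogen activator, at 13.6 ± 1.20 and 19.7 ± 1.95 FPKM (SD, n = 3 each, limma adjusted p = 0.043), which lost its call whichever library was left out and on removal of the length trend (limma adjusted p = 0.296). Among 6 angiopoietin and Tie genes 1 rose and 0 fell, again against 8.46% and 3.62%. This was Svep1, a matrix protein that binds into the angiopoietin pathway in lymphatic development. It measured 2.50 ± 0.182 and 5.01 ± 0.674 FPKM (SD, n = 3 each, limma adjusted p = 0.0179), and kept its call only without rFGF4 replicate 1 or 2. Removing the length trend ended its call too (log2 fold change 0.47, limma adjusted p = 0.218).

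Class 3 semaphorins and plexins, which share the neuropilins with VEGF ligands, were tested in 10 of 12 members. Limma called 0 (5 at an unadjusted p under 0.05), and the median was 0.40, against 12.1%, 32.1% and 0.19 for all genes tested. The smallest p was that of Sema3c, at 5.01 ± 0.916 and 8.10 ± 1.27 FPKM (SD, n = 3 each, limma adjusted p = 0.0549).

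Markers of other cell types that skin holds were read as well. Of all genes tested, 12.1% were called and 32.1% had an unadjusted p under 0.05, with a median log2 fold change of 0.19. Of 8 pericyte markers, which mark the mural cells that follow VEGF-driven sprouts, limma called 0 (2 at an unadjusted p under 0.05), and the median was 0.35. Pdgfrb, the pericyte's PDGF receptor, had the smallest p, at 28.8 ± 1.68 and 42.4 ± 10.0 FPKM (SD, n = 3 each, limma adjusted p = 0.0956). Of 10 keratinocyte markers limma called 0 (0 at an unadjusted p under 0.05), the median was 0.027, and Itga6 had the smallest p (limma adjusted p = 0.188). The troponin Tnni2 had the smallest p of the muscle markers (log2 fold change -0.87, limma adjusted p = 0.141). Of 9 adipocyte markers tested, 1 rose and 1 fell, against 8.46% and 3.62% of all genes tested. The lipase Lpl rose (9.75 ± 0.611 to 15.8 ± 3.46 FPKM) and Ucp1, the uncoupling protein of brown fat, fell (11.5 ± 2.75 to 1.32 ± 1.70 FPKM, SD, n = 3 each, limma adjusted p = 0.0482 and 0.0342). Lpl lost its call whichever library was left out, and Ucp1 kept it only without rFGF4 replicate 3. Removal of the length trend ended both calls (limma adjusted p = 0.359 for Lpl and 0.0811 for Ucp1).

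**Figure D4:**
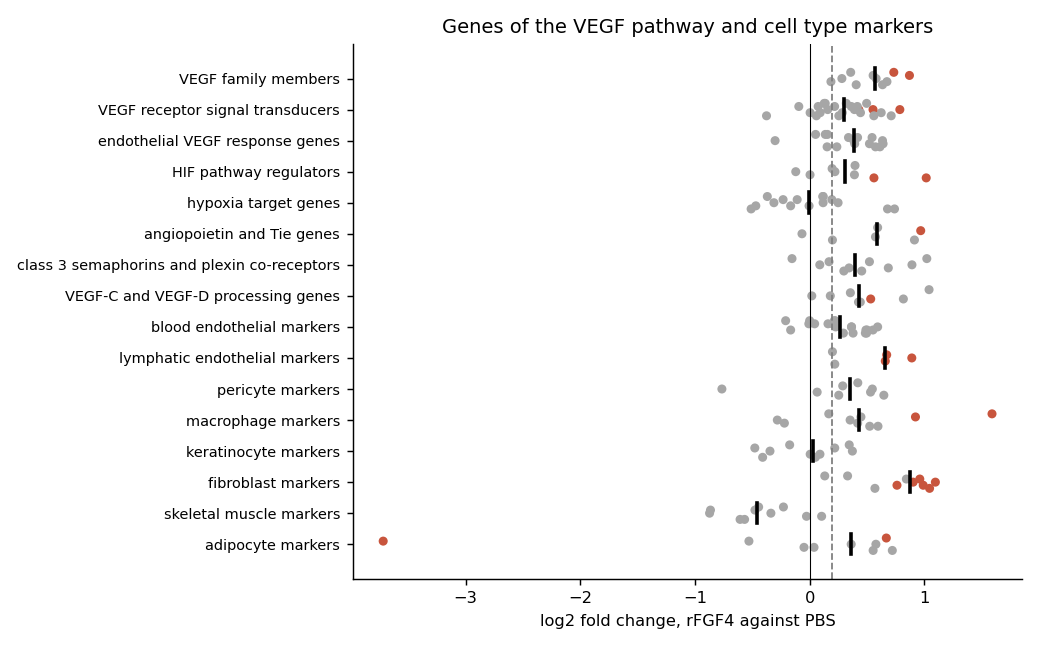
Log2 fold change of rFGF4 against PBS for each tested gene of the family, of the pathway lists and of the cell type markers, in red where limma called the gene and grey where it did not, with a black bar at the list's median and a dashed line at the median of all genes tested, 0.19. The fibroblast list has the highest median, 0.87, and the hypoxia targets lie around 0.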

How the data were processed

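Poly(A) RNA of wound skin was made into strand-marked paired-end libraries, per the labels' protocols. GRCh38, a human build, is named in the submitters' processing notes, beside the tools fastp, HISAT2, StringTie and edgeR, although the symbols are of mouse; the reference and the use of strand are uncertain. The authors' values are taken to be FPKM, since they are not whole and StringTie is in those notes; no unit stands in the header. The deposited table also holds the authors' p-value and q-value, a fold, which is the ratio of group means, and its log2. Genes whose values all stayed at or below 1 FPKM are not listed.

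The 14676 genes that reached 1 FPKM in 3 or more libraries entered a fit of log2(FPKM + 0.1) by limma-trend (robust, two-sided), group as the only term; this scale understates the change of low genes. GENCODE M21 on GRCm38 gave lengths, and the length trend was removed in each library by loess (span 0.3). The members and lists were chosen with earlier results of these data known. Genes named are the members, Pecam1 and Cdh5, up to 4 called genes per list or else that of smallest p, and the 3 genes most like each of Vegfa, Vegfd, Kdr and Flt1; Krt5, Krt14, Fgf4, Prox1 and Reln were added after the data were seen, and 1 gene that this rule names is not reported here. The closing section gives the alternatives, of which removal by the longest transcript was added after the data were seen. On simulated data of 14676 genes the fit found 51.7% of genes shifted by a log2 value of 1 and 84.7% of those shifted by 2, and made 5.33 false calls per run. The simulated noise was independent between genes, without the shared shift and length trend of the real libraries. These rates therefore do not carry over to the real libraries. R 4.3.3, limma 3.58.1 and Python 3.11.15 were used.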

Additional observations from a re-analysis of the deposited data

How the results depend on the processing

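Pseudocounts of 1 or 0.01, no filter and a filter of at least 5 FPKM left 2 members called and 1628 to 1819 genes called, against 1773 as reported. All other settings left 0 members called: 755 genes were called with median-centred libraries, 749 with quantile normalization, 306 with the length trend removed, 315 with it removed by the longest transcript, and 219 with an endothelial score as covariate. With 1 library left out, 156 to 890 genes were called and 0 members in each fit. The replicate number as a block left 233 genes and 0 members called. In that fit 5 members had an unadjusted p under 0.05, against 3 as reported, and Kdr had a limma adjusted p of 0.0983. Same-numbered libraries deviated together with r of 0.183, -0.067 and -0.125, and 1 of 3 numbers matched best with itself. So few numbers cannot show whether the samples were paired, and the labels do not say. The block's lost calls are not read as weaker effects. Members' fold changes were positive in 60 of 60 values with a library left out and in 93 of 96 under other settings. The exceptions were Nrp2 at -0.057 with the length trend removed, and -0.056 for Nrp2 and -0.076 for Vegfa with it removed by the longest transcript. These fits share libraries, so the values are not independent. The filters and the replicate block leave the members' fold changes as they were, so those fits could not change a sign. Of all genes tested, 69.8% were positive as reported, and their median log2 fold change was 0.16 to 0.22 with a library left out. Ratios whose groups do not overlap numbered 1 as reported, 0 with a pseudocount of 1 and 1 to 6 with a library left out. With fewer libraries groups separate more readily, so the counts with a library left out are not comparable with the others. The cause of these changes was not tested. FPKM keep no counts, so what depth limits cannot be given.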
